A study of Mus musculus with 12 samples.

Results

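The mRNA levels of 10 inflammatory genes were followed in RAW264.7 cells, an established mouse macrophage line, with and without added fatty acid binding protein 4 (FABP4) and palmitic acid. The genes encode the cytokines Tnf, Il1a, Il1b and Il6, the interleukin-1 receptor antagonist Il1rn, the acute-phase proteins Lcn2 and Saa3, the enzymes Nos2 and Irg1 (the array's name for Acod1), and the receptor Clec4e. They were chosen by name, and every array spot carrying one of the names was used, which gave 10 of the 17595 genes tested. FABP4, also called aP2, is a lipid chaperone that fat cells and macrophages make and release, and palmitic acid is a saturated fatty acid. The series compared 4 groups of 3 arrays after 24 h, namely a control with neither agent, 200 nM recombinant FABP4, 0.2 mM palmitic acid, and both agents together. All groups were kept in medium with 0.5% fatty acid-free BSA. The cells are a single transformed line of unmodified genotype as far as the labels say. The labels do not state whether replicate arrays stem from different cultures, and the p-values then cover the spread of these samples alone, which may be technical.

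Macrophages switch these genes on when Toll-like receptors or cytokine receptors activate the transcription factor NF-kB. TNF and the interleukins then act on neighbouring cells, IL-1 and IL-6 drive the acute-phase response, and C/EBP factors add to the transcription of acute-phase genes. Saturated fatty acids have been described as inducers of this programme in macrophages. The design asks whether palmitic acid, FABP4 or their combination shifts gene expression. The genes were already well above background in control cells. As multiples of the array's 75th percentile, control geometric means reached 708 (Irg1), 671 (Saa3) and 398 (Il1b). They were 173 for Nos2, 121 for Tnf, 58.2 for Il6 and 10.2 for Il1a, the lowest. The brightest macrophage marker, Lyz1, gave 613 to 715 over all arrays. Whether this starting level limits a further rise was not tested.

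With palmitic acid in cells without FABP4, Lcn2 fell by 27.3% and Saa3 fell by 18.3%, so that 2 of the 10 genes fell and 0 rose, where 3.73% of all genes tested fell and 4.88% rose. With palmitic acid in cells given FABP4, Il1a fell by 25.0% and Lcn2 fell by 19.9%, again 2 of 10 down and 0 up, where 0.943% of all genes fell and 2.86% rose. For FABP4 itself 0 of the 10 genes passed without palmitic acid (0.0171% of all genes) and 0 with it (0% of all genes). Tnf, Il1b, Il1rn, Il6, Nos2, Irg1 and Clec4e did not pass the test in any of the comparisons. The 5 genes Tnf, Il1b, Lcn2, Saa3 and Irg1 were lower on every palmitic acid array than on every control array (16.4% of all genes were), and Clec4e was higher on every one (17.4%). These changes were small: the highest and lowest of the 12 arrays differed by between 1.18-fold (Nos2 and Irg1) and 1.48-fold (Lcn2).

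The arrays lay on 2 slides that do not match the groups. The 3 control arrays shared slide 1 with FABP4 array 1, and all 6 palmitic acid arrays shared slide 2 with FABP4 arrays 2 and 3. Palmitic acid without FABP4 is therefore compared wholly across slides, FABP4 with palmitic acid wholly within slide 2, and the other comparisons partly. Each array held 59305 non-control spots, of which 42.8% to 46.7% were well above background and 0 were saturated. The 75th percentile ranged from 250.1 to 315.3 intensity units across arrays, and the number of arrays limits the precision. Of 11 macrophage markers on the array, 10 were above background on all 12 arrays and Mertk on none. Above background on all 12 arrays were also 1 of 5 B cell, 1 of 5 fibroblast, 3 of 8 neutrophil (S100a8, Elane and Camp) and 3 of 6 T cell markers (Cd3e, Cd4 and Lck), and 0 of 5 adipocyte markers. Of the osteoclast markers 5 of 6 were above background on all arrays (Calcr on none), and their summed signal was higher with palmitic acid. It was 20.0 to 20.8 times the array's 75th percentile in controls, 21.2 to 21.4 with FABP4, 27.3 to 29.1 with palmitic acid and 28.6 to 30.3 with both. Bright markers weigh most in this sum (Tm7sf4 7.4 to 13.6 over all arrays, against 0.456 to 0.717 for Oscar), and single markers were not compared between groups. The summed T cell markers were 22.9 to 24.5 in controls, 22.6 to 25.1 with FABP4, 23.7 to 28.8 with palmitic acid and 27.3 to 28.2 with both, and the summed macrophage markers 1560 to 1610, 1510 to 1600, 1600 to 1650 and 1670 to 1700. The part of these shifts in the results was not tested. A lower signal in fewer cells and a lower signal per cell cannot be told apart in bulk RNA.

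Each of the 10 genes had 1 probe, and each probe was well above background on all 12 arrays, so all 10 passed the filter on dim probes. Tnf, Il1b and Irg1 were spotted 10 times per array, Il6 and Nos2 2 times, and the other genes 1 time. For the genes spotted more than 1 time, the median SD between spots of an array was between 0.019 (Nos2) and 0.06 (Il6) on the log2 scale. The SD between arrays of a group ranged from 0.046 (Il1b) to 0.12 (Il6), against a median of 0.1 over all genes tested.

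The sequences upstream of the 3 genes that passed a test are shown because these genes were called lower in at least 1 palmitic acid comparison. They are known targets of NF-kB or C/EBP factors, and a part of these factors in the changes was not tested. RefSeq promoter windows (GRCm38.p6) were found for 9 of the 10 genes, not for Nos2. Each window gives the 250 bases before the transcription start, 5′ to 3′ on the gene's strand. Capitals mark matches to a kB-like motif (GGG, any 5 bases, then CC, on both strands), a C/EBP-like motif (TTNNGCAA, both strands) or a TATA box (TATAAA, gene strand only), and no match shown here overlaps another. The Lcn2 window lies at chr2:32387740-32387989 on the minus strand, the Saa3 window at chr7:46715677-46715926 on the minus strand, and the Il1a window at chr2:129309973-129310222 on the minus strand.
Lcn2: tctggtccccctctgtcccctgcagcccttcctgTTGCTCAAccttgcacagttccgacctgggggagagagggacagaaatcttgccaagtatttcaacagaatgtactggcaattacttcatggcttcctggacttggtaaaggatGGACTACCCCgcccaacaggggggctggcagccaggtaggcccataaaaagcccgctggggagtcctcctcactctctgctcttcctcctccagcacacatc
Saa3: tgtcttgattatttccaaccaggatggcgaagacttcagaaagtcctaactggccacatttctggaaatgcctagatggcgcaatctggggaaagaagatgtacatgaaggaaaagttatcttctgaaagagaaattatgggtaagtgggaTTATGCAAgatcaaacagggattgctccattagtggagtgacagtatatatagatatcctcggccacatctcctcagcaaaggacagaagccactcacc
Il1a: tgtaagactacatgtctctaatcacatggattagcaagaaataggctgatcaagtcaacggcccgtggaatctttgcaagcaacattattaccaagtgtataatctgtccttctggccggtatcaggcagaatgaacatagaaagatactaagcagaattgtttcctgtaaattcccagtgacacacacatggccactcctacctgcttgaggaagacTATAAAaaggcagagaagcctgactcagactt

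The Lcn2 window held 1 kB-like match, GGACTACCCC, 102 bases before the start, and 1 C/EBP-like match, TTGCTCAA, 216 bases before it. The Saa3 window held the C/EBP-like match TTATGCAA 99 bases before the start, and the Il1a window held a TATAAA 32 bases before it. Among the 9 genes, 5 had a kB-like match in at least 1 window (Tnf, Il1rn, Il6, Lcn2 and Irg1), 4 a C/EBP-like match (Il6, Lcn2, Saa3 and Clec4e) and 5 a TATAAA (Tnf, Il1a, Il1b, Irg1 and Clec4e). Of all 32851 promoter windows of this length, 45.8% held the kB-like motif, which is loosely defined, 9.56% the C/EBP-like motif and 7.59% the TATAAA. These shares are of windows, whereas the counts above are of genes, and the 9 genes had 11 windows in all. A match describes the letters of the window and not a bound site.

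The array reads each gene through a 60-base probe, whose mm9 position the files give. The probe of Lcn2 lies at chr2:32240199-32240258 and that of Il1a at chr2:129125994-129126053. The Saa3 probe, at chr7:53970389-53970448, is given here since its gene has close relatives in the serum amyloid A family.
Saa3 probe: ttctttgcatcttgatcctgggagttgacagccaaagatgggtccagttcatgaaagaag
Whether the probes lie in coding exons or in untranslated exons was not analysed here.

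**Figure D1:**
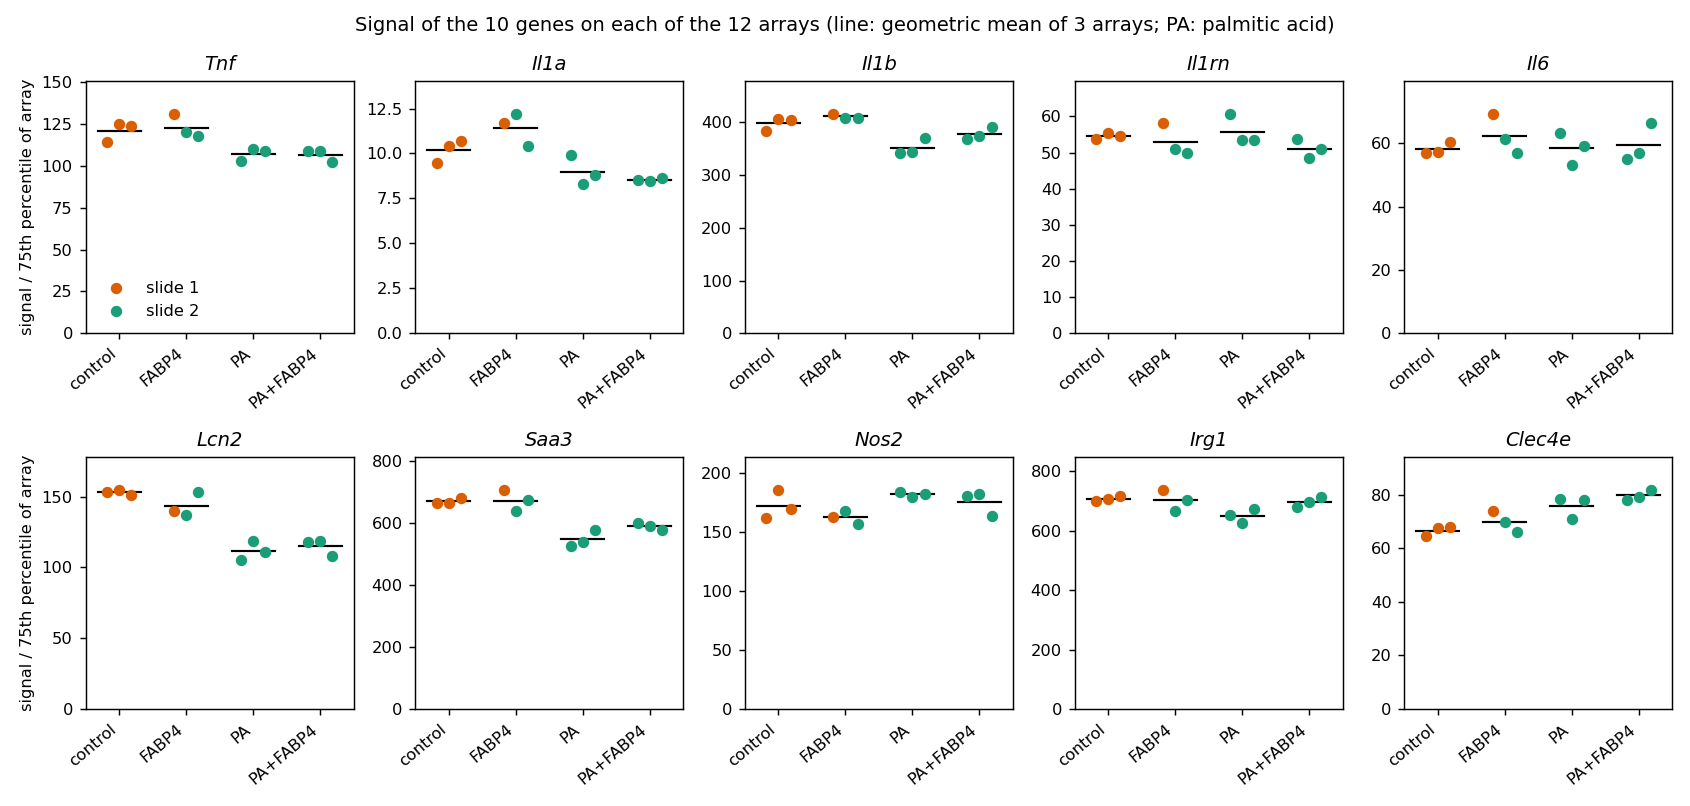
Signal of the 10 genes on each of the 12 arrays, as a multiple of the array's 75th percentile (vertical axes start at 0), by group, with points coloured by slide and lines at the geometric mean of 3 arrays. Lcn2 lies between 137 and 155 on the 6 arrays without palmitic acid and between 105 and 119 on the 6 arrays with it. For Il6, Il1rn and Nos2 the 2 groups of each treatment comparison overlap.

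Of the 10 genes Lcn2 had the largest fall without FABP4. It encodes lipocalin 2, a secreted protein that withholds iron from bacteria by binding their siderophores. Its signal, as a multiple of the array's 75th percentile, was 153, 155 and 151 on the control arrays, 140, 137 and 153 with FABP4, 105, 119 and 111 with palmitic acid, and 118, 119 and 108 with both. Every array with palmitic acid was lower than every array without it, and the 2 groups on each side overlapped. From the highest group down, the geometric means were 153 in controls, 143 with FABP4, 115 with both agents and 111 with palmitic acid, and only the step from 143 to 115 was free of overlap. Palmitic acid lowered Lcn2 by 0.46 ± 0.06 (SE, n = 3) on the log2 scale without FABP4 (limma, adjusted p = 0.00409) and by 0.32 ± 0.06 with FABP4 (adjusted p = 0.0257). Set against the slide as a fixed block, its values were -0.51 ± 0.12 (adjusted p = 0.0967) and -0.34 ± 0.07 (adjusted p = 0.0429), and on slide 2 alone the value with FABP4 was -0.34 (adjusted p = 0.104). The call without FABP4 held whichever of the 12 arrays was left out, with adjusted p up to 0.0199. The call with FABP4 ended without FABP4 array 2 (adjusted p = 0.0508), FABP4 array 3 (0.067), or array 1, 2 or 3 of both agents (0.072, 0.0617 and 0.0883).

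Saa3 encodes a serum amyloid A protein that macrophages and fat cells make outside the liver. It gave 666, 666 and 681 times the 75th percentile in controls, 709, 639 and 675 with FABP4, 526, 541 and 580 with palmitic acid, and 602, 590 and 579 with both. The palmitic acid arrays were again all below the arrays without it, and the 2 groups with palmitic acid touched at 580 and 579. The fall was 0.29 ± 0.05 on the log2 scale without FABP4 (adjusted p = 0.0104), which held without any 1 array (adjusted p up to 0.0433). With FABP4 the value was -0.19 ± 0.05 (adjusted p = 0.0826) and did not pass, though it did with quantile normalization (-0.30, adjusted p = 0.00235), the 75th percentile over detected probes (-0.23, adjusted p = 0.0109), normexp background (-0.24, adjusted p = 0.0294) and trended moderation (adjusted p = 0.0147). The slide block gave -0.18 ± 0.09 (adjusted p = 0.368) and -0.15 ± 0.05 (adjusted p = 0.157), neither of them past the test. Since FABP4 array 1 alone links the slides, every slide-block value for palmitic acid without FABP4 rests on that array. A random slide block gave -0.25 without FABP4 (adjusted p = 0.135). Without scaling between arrays the value was -0.12 (adjusted p = 0.245), against a median of 0.17 over all genes.

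Among the cytokines, Il1a passed a test and Tnf, Il1b and Il6 did not; differences between the genes were not tested. Il1a encodes interleukin-1 alpha, which acts as an alarm signal when cells are damaged. Its signal was 9.46, 10.4 and 10.7 times the 75th percentile in controls, 11.7, 12.2 and 10.4 with FABP4, 9.93, 8.32 and 8.81 with palmitic acid, and 8.50, 8.49 and 8.62 with both. The arrays with both agents all lay below those with FABP4, whereas palmitic acid and control arrays overlapped. With FABP4 present, palmitic acid lowered Il1a by 0.41 ± 0.08 on the log2 scale (adjusted p = 0.022). Without FABP4 the value was -0.18 ± 0.08 (adjusted p = 0.194), and it was 0 without scaling between arrays. The difference of these 2 effects was itself -0.24 ± 0.11 (adjusted p = 0.713), so the effect of palmitic acid was not shown to differ between cells with and without FABP4. The slide block left a value of -0.40 ± 0.09 with FABP4 (adjusted p = 0.0534), and slide 2 alone gave -0.40 (adjusted p = 0.0968). The call ended without FABP4 array 1 (adjusted p = 0.0535), FABP4 array 2 (0.0797), or array 1, 2 or 3 of both agents (0.0813, 0.0777 and 0.0661).

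Tnf and Il1b encode the cytokines tumour necrosis factor and interleukin-1 beta, the latter made as a precursor that caspase-1 cuts. Tnf gave 114, 125 and 124 times the 75th percentile in controls, 131, 120 and 118 with FABP4, 103, 110 and 109 with palmitic acid, and 109, 109 and 102 with both. Il1b gave 384, 406 and 404 in controls, 416, 409 and 409 with FABP4, 342, 343 and 371 with palmitic acid, and 368, 375 and 391 with both. In both genes the palmitic acid arrays lay below the matching arrays without it, with and without FABP4. The effects of palmitic acid on Tnf were -0.17 ± 0.06 without FABP4 (adjusted p = 0.0963) and -0.20 ± 0.06 with it (adjusted p = 0.0946). Those on Il1b were -0.18 ± 0.05 (adjusted p = 0.051) and -0.12 ± 0.05 (adjusted p = 0.195), so neither gene passed. Il1b came past the test without FABP4 array 1 (adjusted p = 0.0395) or without palmitic acid array 3 (adjusted p = 0.0435). In the fit with the slide, the values without FABP4 were -0.03 ± 0.09 for Tnf and -0.15 ± 0.09 for Il1b. Quantile normalization brought both genes past the test in both comparisons. Of the 26 alternative runs for palmitic acid without FABP4, Tnf passed in 2 and Il1b in 6. Of the 27 with FABP4, Tnf passed in 3 and Il1b in 1.

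Il1rn encodes the antagonist that occupies the interleukin-1 receptor without signalling, and Il6 encodes interleukin-6, the main inducer of acute-phase proteins in liver. Il1rn gave 53.7, 55.3 and 54.6 times the 75th percentile in controls, 58.3, 51.0 and 49.8 with FABP4, 60.7, 53.6 and 53.5 with palmitic acid, and 53.8, 48.6 and 51.0 with both. Il6 gave 56.8, 57.3 and 60.4 in controls, 69.3, 61.4 and 57.0 with FABP4, 63.3, 53.3 and 59.3 with palmitic acid, and 55.1, 57.1 and 66.5 with both. The groups of both genes overlapped in all 4 comparisons. The palmitic acid effects on Il6 were 0.01 ± 0.10 without FABP4 and -0.07 ± 0.10 with it, with 95% confidence intervals of -0.20 to 0.22 and -0.28 to 0.14. Those on Il1rn were 0.03 ± 0.07 (interval -0.13 to 0.20) and -0.05 ± 0.07 (interval -0.21 to 0.11). The Il1rn and Il6 values without FABP4 became 0.24 ± 0.11 (adjusted p = 0.339) and 0.23 ± 0.15 (adjusted p = 0.529) with the slide block.

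Nos2 encodes the inducible enzyme that makes nitric oxide from arginine, and Irg1 encodes the mitochondrial enzyme that makes itaconate, an inhibitor of succinate dehydrogenase. Nos2 gave 162, 186 and 170 times the 75th percentile in controls, 163, 168 and 157 with FABP4, 184, 180 and 182 with palmitic acid, and 181, 182 and 164 with both. Irg1 gave 701, 707 and 715 in controls, 738, 667 and 702 with FABP4, 653, 627 and 673 with palmitic acid, and 680, 696 and 712 with both. Irg1 was lower on all palmitic acid arrays than on all control arrays, and overlapped between FABP4 and both agents. Neither gene passed: the palmitic acid effects on Irg1 were -0.12 ± 0.05 (adjusted p = 0.155) and -0.01 ± 0.05 (adjusted p = 0.912), and those on Nos2 were 0.08 ± 0.06 (adjusted p = 0.462) and 0.11 ± 0.06 (adjusted p = 0.335). The Irg1 value without FABP4 was -0.01 ± 0.08 with the slide block.

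Clec4e encodes Mincle, a C-type lectin receptor for mycobacterial glycolipids and for material from dying cells. It gave 64.5, 67.4 and 67.8 times the 75th percentile in controls, 73.9, 69.9 and 66.0 with FABP4, 78.4, 70.8 and 78.0 with palmitic acid, and 78.0, 79.3 and 81.9 with both. Of the 10 genes it alone was higher on every palmitic acid array than on every matching array without it, in both comparisons. The effects were 0.18 ± 0.06 (adjusted p = 0.0766) and 0.19 ± 0.06 (adjusted p = 0.108) and did not pass. They were 0.31 ± 0.09 (adjusted p = 0.173) and 0.23 ± 0.06 (adjusted p = 0.0712) with the slide block. Clec4e came past the test for palmitic acid alone when FABP4 array 1 was left out (adjusted p = 0.0459), with the 75th percentile over detected probes (0.20, adjusted p = 0.0297) and without scaling between arrays (0.36, adjusted p = 0.029). It did so in both comparisons with trended and robust moderation.

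**Figure D2:**
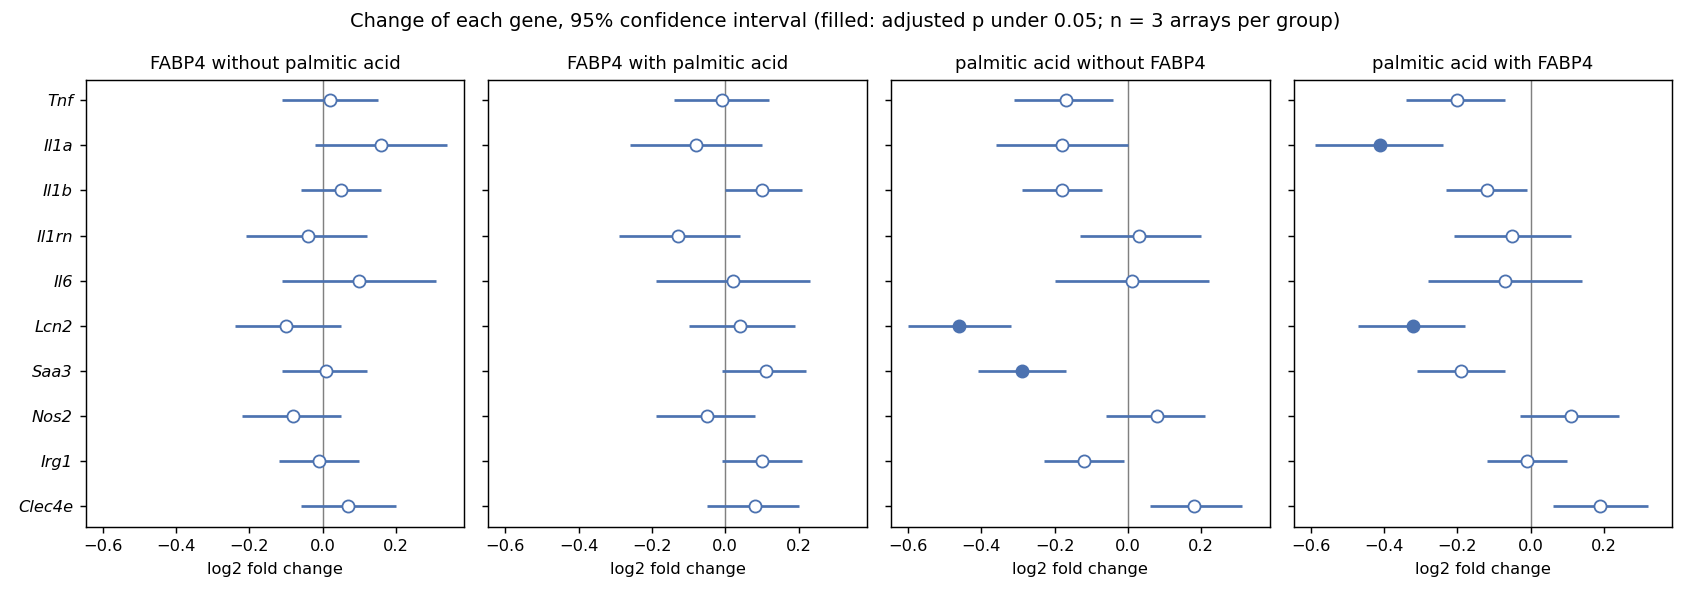
Log2 fold change of each gene in the 4 comparisons, with 95% confidence intervals from the limma fit (n = 3 arrays per group) and filled points at an adjusted p under 0.05. Filled points are Lcn2 and Saa3 for palmitic acid without FABP4, and Lcn2 and Il1a for palmitic acid with FABP4; no point is filled in the FABP4 panels.

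Seen as a list, 5 of the 10 genes (Tnf, Il1a, Il1b, Lcn2 and Saa3) were lower on every array with both agents than on every FABP4 array, as were 6.96% of all genes, and 1 (Clec4e) was higher, as were 19.3%. The median change of the 10 genes was -0.15 without FABP4 and -0.10 with it, beside medians of 0.00054 and 0.05 over all genes. With the slide block these medians were -0.02 and -0.05, beside 0.039 and 0.058 over all genes, with 0 and 1 of the 10 genes called, beside 0.784% and 3.35% of all genes. Without scaling between arrays they were 0.03 and -0.19, beside 0.17 and -0.047 over all genes.

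**Figure D3:**
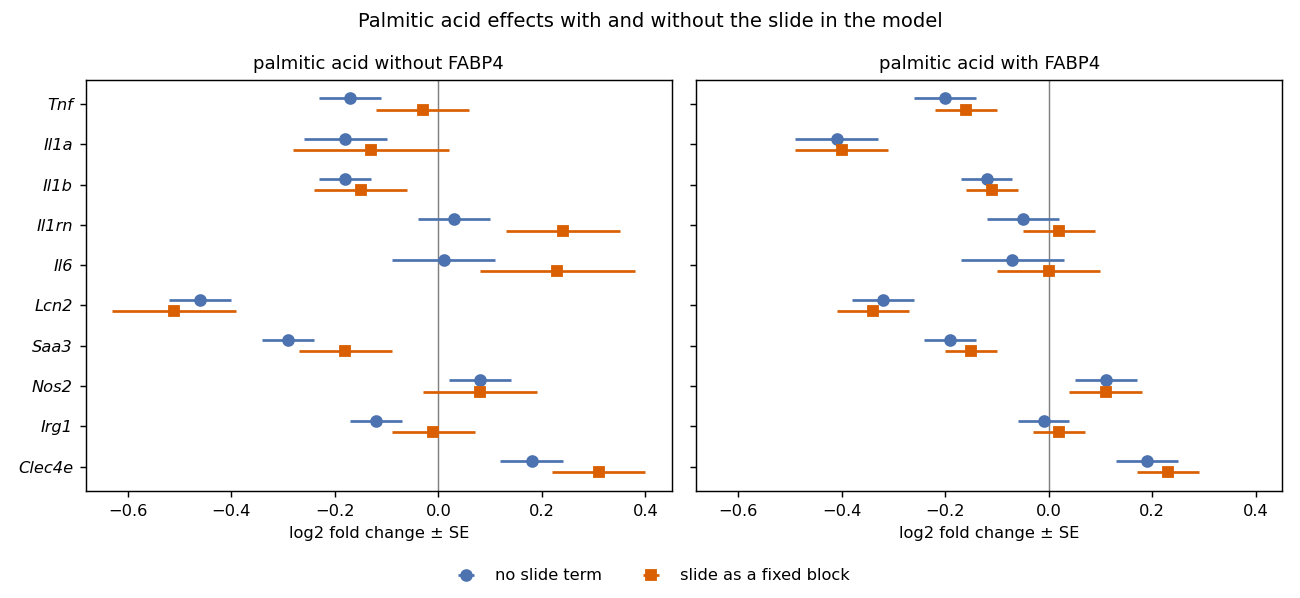
Palmitic acid effects on the 10 genes (log2 fold change ± SE) from the model without a slide term (circles) and with the slide as a fixed block (squares). Without FABP4 the values of Tnf and Irg1 move to -0.03 and -0.01 and the standard errors widen, while Lcn2 goes from -0.46 to -0.51; with FABP4 the pairs of points lie close together.

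FABP4 changed none of the 10 genes past the test. Without palmitic acid limma called 0 of 10 at an adjusted p under 0.05 and 0 at an unadjusted p under 0.05, where 3 of 17595 genes (0.0171%) were called and 1273 (7.24%) had an unadjusted p under 0.05. With palmitic acid 0 of 10 genes were called and 0 had an unadjusted p under 0.05, where 0% of all genes were called and 1034 (5.88%) had an unadjusted p under 0.05. The effects ranged from -0.10 (Lcn2) to 0.16 (Il1a) without palmitic acid and from -0.13 (Il1rn) to 0.11 (Saa3) with it. Their 95% confidence intervals reached from -0.24 to 0.34 and from -0.29 to 0.23. The bound farthest from no change was thus a 1.27-fold and a 1.22-fold difference. Both bounds come from the fit without a slide term, and intervals with the slide block are not given here. Il1b was higher on every FABP4 array than on every control array (0.05 ± 0.05, adjusted p = 0.908), as were 4.01% of all genes. Irg1 was higher on every array with both agents than on every palmitic acid array (0.10 ± 0.05, adjusted p = 0.809), as were 11.4% of all genes. In the fit with the slide as a block, 0 of the 10 genes passed for FABP4 without palmitic acid, with values from -0.13 ± 0.09 (Lcn2) to 0.25 ± 0.12 (Il6). Slide 1 held a single FABP4 array, and slide 2 held no control array.

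The interaction, the palmitic acid effect with FABP4 minus that without it, passed for 0 of the 10 genes and for 0% of all genes, with 0 and 1218 (6.92%) at an unadjusted p under 0.05. It lay between -0.24 ± 0.11 (Il1a) and 0.14 ± 0.09 (Lcn2, adjusted p = 0.732). It was 0.10 ± 0.07 for Saa3 (adjusted p = 0.756), so its response was not shown to differ between cells with and without FABP4.

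Other genes of the same pathways changed in both directions with palmitic acid, and none of their lists held a gene called for FABP4. Of 41 tested genes of the NF-kB and Toll-like receptor response, 3 rose and 5 fell without FABP4, where 4.88% of all genes rose and 3.73% fell, and 2 rose and 2 fell with it, where 2.86% and 0.943% did. The list's median changes were -0.03 and 0.04. Csf2, the growth factor GM-CSF, fell most: 4.28, 4.65 and 4.33 times the 75th percentile in controls against 2.94, 2.98 and 2.89 with palmitic acid, and 5.16, 5.37 and 4.59 with FABP4 against 3.18, 3.27 and 2.96 with both. No Csf2 array with palmitic acid reached the lowest without it, and the falls were 0.59 ± 0.07 (adjusted p = 0.00124) and 0.68 ± 0.07 (adjusted p = 0.000676) on the log2 scale. Csf3, the granulocyte growth factor G-CSF, rose instead, by 0.31 ± 0.06 (adjusted p = 0.0104) and 0.36 ± 0.06 (adjusted p = 0.00745). Ifnb1, interferon beta, rose by 0.44 ± 0.07 without FABP4 (adjusted p = 0.00506) and stood at 0.23 ± 0.07 with it (adjusted p = 0.0907). Mmp9, a secreted protease, gave 0.165, 0.187 and 0.143 with FABP4 and 0.105, 0.0966 and 0.115 with both agents. It passed the test (adjusted p = 0.017), but only 1 of the 3 arrays with both agents was well above background, so the size of its fall is not given. Its call ended without FABP4 array 2, without array 1 or 2 of both agents (adjusted p up to 0.0715) or without scaling (adjusted p = 0.069), and that of Csf3 with FABP4 also ended without scaling (0.26, adjusted p = 0.244). The calls of Csf2 and Csf3 in both comparisons and of Ifnb1 without FABP4 held without any 1 array. With the slide block 0 genes of the list passed without FABP4 (Csf2 -0.53, adjusted p = 0.0904, and Ifnb1 0.53, adjusted p = 0.0813). With FABP4 2 rose and 2 fell (Csf2 -0.66, adjusted p = 0.00264), but the risers were not the same genes. Edn1 passed only with the slide block (adjusted p = 0.0174, against 0.0815). Ptges passed only without it (adjusted p = 0.0463, against 0.0583), and its call held in 0 of 12 sets of arrays with 1 left out.

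Among 23 tested genes for receptors, processing and mRNA control of TNF, IL-1 and IL-6, 1 rose and 2 fell without FABP4 (4.88% and 3.73% of all genes), and 0 rose and 1 fell with it (2.86% and 0.943%). Irak3, an inhibitory kinase homologue of the interleukin-1 receptor pathway, fell by 0.36 ± 0.06 (adjusted p = 0.0102) and 0.29 ± 0.06 (adjusted p = 0.0366). Il6ra, the interleukin-6 receptor, fell by 0.32 ± 0.06 without FABP4 (adjusted p = 0.0165), and Pycard, the inflammasome adaptor ASC, rose by 0.38 ± 0.10 (adjusted p = 0.0399). With FABP4 Il6ra stood at -0.09 ± 0.06 (adjusted p = 0.463) and Pycard at 0.18 ± 0.10 (adjusted p = 0.32). Neither effect was shown to differ between cells with and without FABP4 (interaction, adjusted p = 0.708 and 0.74). The call of Irak3 without FABP4 held without any 1 array, and with FABP4 it held in 4 of 12 (adjusted p up to 0.114). That of Il6ra ended without control array 1 or 3 or palmitic acid array 1 (adjusted p up to 0.0648), and that of Pycard held in 3 of 12 (adjusted p up to 0.131). The slide block ended all 4 calls: without FABP4 Pycard stood at 0.10 ± 0.14 (adjusted p = 0.792), Irak3 at -0.19 ± 0.10 (adjusted p = 0.413) and Il6ra at -0.23 ± 0.11 (adjusted p = 0.392), and with FABP4 Irak3 at -0.24 ± 0.06 (adjusted p = 0.0742). Without scaling between arrays Irak3 was at -0.18 (adjusted p = 0.104) and Il6ra at -0.15 (adjusted p = 0.235) without FABP4, and with the 75th percentile over detected probes Pycard had an adjusted p of 0.0503.

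Of the other acute-phase genes 9 of 18 were tested, and 2 rose and 0 fell in each palmitic acid comparison, where 4.88% of all genes rose without FABP4 and 2.86% with it. The medians were 0.20 and 0.17. Hp encodes haptoglobin, which binds free haemoglobin. It gave 1.10, 0.992 and 0.963 times the 75th percentile in controls, 0.928, 1.10 and 1.18 with FABP4, 1.63, 1.62 and 1.92 with palmitic acid, and 1.92, 1.77 and 1.75 with both. All palmitic acid arrays were above all others, and Hp rose by 0.76 ± 0.10 (adjusted p = 0.0027) and 0.77 ± 0.10 (adjusted p = 0.00312), which held without any 1 array. With the slide block its values were 0.47 ± 0.14 (adjusted p = 0.174) and 0.67 ± 0.09 (adjusted p = 0.00632). Hamp, which encodes the iron hormone hepcidin, rose by 1.05 ± 0.22 without FABP4 (adjusted p = 0.0187). With FABP4 Hamp stood at 0.56 ± 0.22 (adjusted p = 0.187). Its signal was dim, at 0.142, 0.160 and 0.168 times the 75th percentile in controls and 0.314, 0.335 and 0.321 with palmitic acid. Its call ended without control array 1 or palmitic acid array 2 or 3 (adjusted p up to 0.0692), and it stood at 0.37 ± 0.31 with the slide block. C3, the central complement protein, rose by 0.27 ± 0.06 with FABP4 (adjusted p = 0.0423) and stood at 0.22 ± 0.06 without it (adjusted p = 0.0566). These 2 effects were not shown to differ (interaction 0.05 ± 0.09, adjusted p = 0.888). The call with FABP4 held in 2 of 12 sets of arrays with 1 left out (adjusted p up to 0.156). It ended without scaling between arrays (0.17, adjusted p = 0.42) and held with the slide block (0.32 ± 0.06, adjusted p = 0.0186). The serum amyloid genes Saa1 and Saa2 stood at -0.10 ± 0.05 (adjusted p = 0.228) and -0.20 ± 0.17 (adjusted p = 0.493) without FABP4, and at -0.13 ± 0.05 (adjusted p = 0.196) and -0.37 ± 0.17 (adjusted p = 0.241) with it.

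Around the enzymes, 0 of 17 tested genes of arginine, nitric oxide and itaconate metabolism passed in either palmitic acid comparison (4.88% of all genes rose and 3.73% fell without FABP4, and 2.86% and 0.943% with it), with a lowest adjusted p of 0.055 and 0.147. Among 10 tested genes of Mincle signalling and related C-type lectins, 1 rose and 1 fell in each, beside the same shares of all genes. Clec4n, the fungal receptor Dectin-2, fell by 0.46 ± 0.08 (adjusted p = 0.00832) and 0.44 ± 0.08 (adjusted p = 0.016). Syk, the kinase that these receptors signal through, rose by 0.27 ± 0.05 (adjusted p = 0.0133) and 0.24 ± 0.05 (adjusted p = 0.0324). The call of Clec4n without FABP4 held without any 1 array, and with FABP4 it ended without array 1 or 2 of both agents (adjusted p up to 0.0669). That of Syk ended without control array 3 or palmitic acid array 2 (adjusted p up to 0.0569), and with FABP4 it held in 5 of 12 (adjusted p up to 0.107). With FABP4 the Syk call also ended with quantile normalization (adjusted p = 0.0775), the 75th percentile over detected probes (0.0653) and no scaling (0.14, adjusted p = 0.534). With the slide block 0 genes passed without FABP4 and the same 2 genes passed with it (adjusted p = 0.0432 for Clec4n and 0.0496 for Syk).

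**Figure D4:**
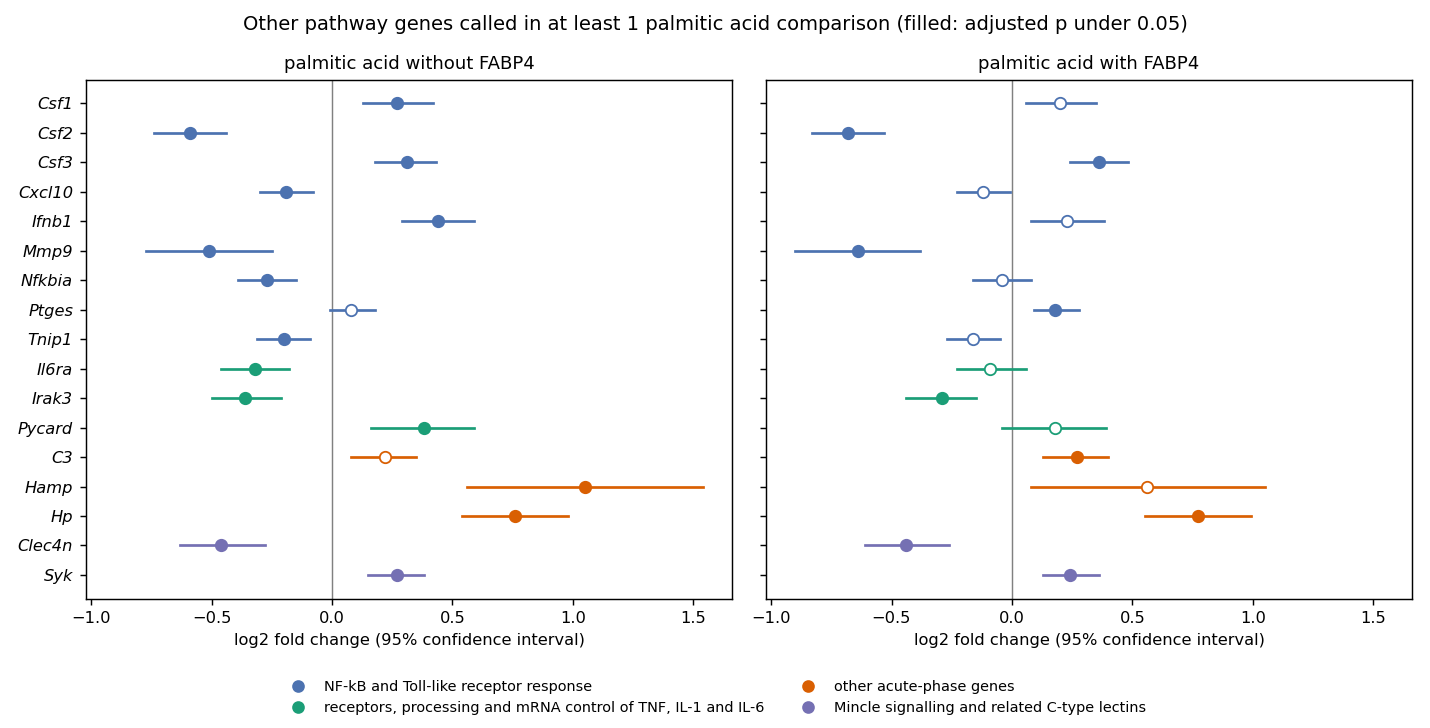
Log2 fold change with 95% confidence interval of the other pathway genes called in at least 1 palmitic acid comparison, coloured by list and filled at an adjusted p under 0.05. Csf2 lies at -0.59 and -0.68 and Hp at 0.76 and 0.77 in the panels without and with FABP4; genes of the NF-kB list lie on both sides of 0.

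For the genes past the test, the tested genes of most similar pattern over the 12 arrays were named as a description. The arrays share their groups and slides, so any gene that moves with palmitic acid resembles another. Dok2, Chst14 and Lhpp were most like Lcn2, with Pearson correlations of 0.991, 0.985 and 0.98 of log2 values. Kif20a and Irf2bp2 were among those most like Saa3 (0.977 and 0.976). Chordc1, the unnamed probe A_55_P2072925 and Ift57 were most like Il1a (0.917, 0.916 and 0.915).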

How the data were processed

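Per the labels' protocols, Cy3-labelled cRNA was made from 50 ng of RAW264.7 RNA for each 1-colour Agilent array. Per the file headers, Agilent Feature Extraction 10.7.3.1 gave the deposited intensity of each spot, background-subtracted, on a linear scale and not scaled between arrays. Within 0.005, the value table that the authors deposited repeats that intensity. Other upstream steps are not given in the sources used here.

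Outlier spots were dropped. Values were log2 of the deposited intensity minus each array's 75th percentile over non-control spots, averaged over a probe's spots. Probes entered if 1 group or more had them well above background on each of its 3 arrays (23909 of 55681), and the brightest stood for its gene. A model of 4 group means was fitted to 12 arrays with limma 3.58.1 (lmFit, eBayes, two-sided) in R 4.3.3. Benjamini-Hochberg adjustment ran over all 17595 genes, with calls at an adjusted p under 0.05. The slide was tried as a fixed and random block, beside other scalings, filters, probe rules, moderation and leaving out each array. The fit was tested on simulated data that held no slide effect, so that check does not cover the overlap of slide and palmitic acid. Figures were drawn with matplotlib 3.10.9.

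The 10 genes, the pathway lists, the markers and the tests were chosen with earlier results of these data known. Named were the 10 genes, the 3 called genes of smallest p per list and palmitic acid comparison, and the 3 genes of highest correlation with each called gene, of which 1 is not reported here. Saa1, Saa2, Ptges and Edn1 were added after their values were seen.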

Additional observations from a re-analysis of the deposited data

How the results depend on the processing

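The 10 genes held 0 calls for both FABP4 comparisons and for the interaction under every alternative run. For palmitic acid without FABP4 the 2 calls became 4 with quantile normalization, 4 with the 75th percentile over probes detected on all arrays, 5 with trended and robust moderation, 1 with no filter on dim probes, 0 with the slide as a fixed block and 1 with it as a random block, and lay between 2 and 4 when each array was left out (4 without FABP4 array 1). With FABP4 the 2 calls became 5 with quantile normalization, 4 with the detected percentile, 5 with trended moderation, 1 with the slide as a fixed block, and 0 with no filter, with no scaling between arrays (chosen after seeing the data), with only the groups compared and on slide 2 only. They lay between 0 and 2 when each array was left out. Over all genes, the 1515 calls for palmitic acid without FABP4 became 513 with no filter, 138 and 191 with the slide as a fixed or random block and 3055 with no scaling, and ranged from 655 (without control array 1) to 2714 (without FABP4 array 1). The 670 with FABP4 became 185 with no filter, 159 with no scaling, 94 with only the groups compared, 260 on slide 2 only and 1139 with trended moderation, and ranged from 247 (without array 1 of both agents) to 601. Without scaling the calls split into 2945 up and 110 down without FABP4 (858 and 657 as reported) and 67 and 92 with it (504 and 166 as reported), and the median of all genes moved to 0.17 and -0.047; with FABP4 the split was 393 and 304 after quantile normalization and 391 and 431 with the detected percentile. The 3 calls for FABP4 without palmitic acid became 103 with the slide as a fixed block, 1 with no filter or every probe, and 0 with the detected percentile, normexp, the all-array filter, the mean of probes, the slide as a random block, only the groups compared and slide 1 only (chosen after seeing the data), and ranged from 0 to 59 (without FABP4 array 1). The 0 calls for FABP4 with palmitic acid became 1 with every probe and 1 with trended moderation, and ranged from 0 to 2. The 0 calls for the interaction became 37 with the slide as a fixed block and 3 with no scaling, and ranged from 0 to 5. The cause of these moves was not tested. No called value of the 10 genes changed sign.

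Replicate numbers did not pair the arrays: 1 of 18 same-numbered pairs had a correlation over 0.1 (range -0.08 to 0.17), and 3 of 12 arrays correlated best with their own number. With the replicate block the calls for palmitic acid with FABP4 were 0 of the 10 genes and 408 of all genes, those for palmitic acid without FABP4 were 2 of the 10 genes and 1340 of all genes (2 and 1515 as reported), and those for FABP4 without palmitic acid were 0. The number of arrays limits all of these.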
